A study of Rattus norvegicus with 6 samples.

Results

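The Robo and Slit guidance genes measured here were the receptors Robo1, Robo2 and Robo3, the secreted ligands Slit1, Slit2 and Slit3, and the effectors Srgap1, Srgap2 and Srgap3. They are 9 of the 32900 features in the table of normalised counts, taken by gene name. All 9 were in the table, and 7 of them had at least 1 read. The set was chosen by the measured Robo2 difference between PWS and control lines in these same libraries, so the genes were picked with this contrast in view and their differences between the groups are given as a description, with no p-value. How many of them passed a test across all genes is counted once, beside the share of all genes that passed.

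Slit proteins are secreted and bind Robo receptors, single-pass membrane proteins of the immunoglobulin superfamily that carry no enzyme activity of their own. The intracellular part of Robo recruits srGAPs (Slit-Robo GTPase-activating proteins), which act on the actin cytoskeleton. The pathway is best known for steering growing axons, and in the pancreas it acts in islet architecture and beta cell biology.

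RNA was sequenced from 3 control and 3 PWS lines of rat INS-1 cells, an insulinoma line used as a model of beta cells, which here also carries a human insulin transgene and a mouse Ins2 C-peptide fused to mCherry. All 6 lines were grown in 7.5 mM glucose without further treatment, and rRNA-depleted, strand-marked libraries were made from total RNA, with 1 library per line. Control lines 5-9, 2 and 16 carry a CRISPR/Cas9 deletion of the Prader-Willi syndrome (PWS) imprinted domain on the silent maternal allele only, and PWS lines 3, 19-1 and 19-4 carry deletions on both alleles, so the active paternal copy is also gone. In a second round, PWS lines 3 and 19 were isolated as clones of line 5-9 that had received Cas9 and guides. Control lines 2 and 16 were also clones of line 5-9, and 1 figure legend of the paper says that they had received an EGFP control vector. Another legend places them in the second CRISPR/Cas9 screen without naming their vector. With the EGFP description, the paternal deletion and this second exposure to Cas9 cannot be told apart. Line 19 was subcloned into 19-1 and 19-4, which leaves the PWS group with 2 clones of origin. The paternal deletion of line 3 is larger than that of the line 19 subclones. Each line is a clone, so genotype and clone cannot be told apart within a single line, and spreads and p-values describe these lines only.

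Genes inside the deleted domain followed the labels. Mkrn3 had 77.9 to 89.0 normalised counts in the control lines and was at 0 in all PWS lines. Snrpn had 3149 to 3956 in the control lines and 2.04, 0 and 3.64 in PWS lines 3, 19-1 and 19-4. Between 26016478 and 36084261 assignments of reads to genes were counted per line. Here a read with several alignments, or over several genes, counts for each of them. Between 17530149 and 23022637 reads per line were assigned to a single gene. Values are normalised counts, read counts divided by a size factor for each library, and 1 counted read was worth 0.909 to 1.196 normalised counts. A count of 0 in a line allows up to 3 reads, or 2.73 to 3.59 normalised counts, which covers counting error only. All 17 beta cell marker genes examined had reads in these lines. Expression is compared between lines for each gene, and not between genes, because transcript lengths were not used here.

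Robo2 and Robo1 both lie on rat chromosome 11 in the RefSeq annotation of assembly GRCr8. Between their start coordinates lie those of 7 annotated genes, 1 of which is protein-coding, and these can include genes inside Robo1. Robo2 and Robo1 are shown with Srgap3 because these genes span the differences described below. In the PWS lines Robo2 was lower, Robo1 was nearly level and Srgap3 was higher. Each sequence is the 250 bases before an annotated start, read 5′ to 3′ on the gene's strand, with capitals marking CCAAT or GGGCGG on either strand. The deposited tables carry no coordinates, and the reads were aligned to an earlier Ensembl genome, so these windows are annotation beside the data.
Robo2, chr11:26526413-26526662, minus strand: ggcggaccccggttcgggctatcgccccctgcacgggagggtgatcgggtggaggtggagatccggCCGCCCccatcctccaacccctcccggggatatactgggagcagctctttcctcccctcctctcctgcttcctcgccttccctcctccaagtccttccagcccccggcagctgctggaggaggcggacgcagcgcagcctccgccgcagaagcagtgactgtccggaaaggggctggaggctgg
Robo1, first start, chr11:24067706-24067955, plus strand: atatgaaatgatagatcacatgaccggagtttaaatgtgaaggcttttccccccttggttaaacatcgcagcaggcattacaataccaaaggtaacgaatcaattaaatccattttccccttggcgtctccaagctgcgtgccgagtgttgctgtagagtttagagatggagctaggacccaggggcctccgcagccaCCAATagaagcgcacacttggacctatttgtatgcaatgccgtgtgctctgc
Robo1, second start, chr11:24714445-24714694, plus strand: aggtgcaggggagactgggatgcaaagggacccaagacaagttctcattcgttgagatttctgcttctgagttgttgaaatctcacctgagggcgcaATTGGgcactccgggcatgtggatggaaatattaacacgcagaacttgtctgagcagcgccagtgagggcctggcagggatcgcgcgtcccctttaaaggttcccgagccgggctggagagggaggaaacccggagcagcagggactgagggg
Srgap3, chr4:147625515-147625764, minus strand: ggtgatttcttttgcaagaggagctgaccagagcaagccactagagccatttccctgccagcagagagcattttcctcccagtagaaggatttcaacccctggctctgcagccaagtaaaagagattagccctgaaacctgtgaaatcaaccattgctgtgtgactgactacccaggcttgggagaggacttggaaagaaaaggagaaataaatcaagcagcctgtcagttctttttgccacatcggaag

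The Robo2 window had 69.2% G and C, against 48.0% and 57.2% for the windows of Robo1, 48.0% for that of Srgap3 and a median of 51.2% over 33469 promoter windows of the same length. It held 1 GGGCGG on the opposite strand, 184 bases before the start, and no CCAAT. Each Robo1 window held 1 CCAAT, at 52 bases and 153 bases before its start, and the Srgap3 window held neither motif. CCAAT occurred in 34.0% and GGGCGG in 30.5% of all windows, and these motifs do not overlap one another in the windows printed. RefSeq promoter entries were matched for 7 of the 9 genes, with 9 windows in all. In the windows not printed, Slit3 had 69.2%, Srgap1 67.6%, Robo3 62.8% and Srgap2 56.4% and 53.2% G and C. Each of those windows held at least 1 GGGCGG, so neither trait was particular to Robo2. Slit1 and Slit2 were not matched.

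Among the receptors, Robo2 had lower values in the PWS lines while Robo1 hardly moved. Robo2, a Slit receptor needed for the ordered layout of endocrine cells in the islet, had 646, 1231 and 877 normalised counts in control lines 5-9, 2 and 16. In PWS lines 3, 19-1 and 19-4 it had 470, 568 and 323. Every PWS line was below every control line, so the groups did not overlap, although the step from PWS line 19-1 to control line 5-9 was smaller than the spread among the control lines. The means were 918 ± 295 and 453 ± 123 (SD, n = 3 lines each), a ratio of 0.494. On the log2(normalised count + 1) scale the difference was -1.004 (SE 0.26), and 152 of the 15579 genes tested (0.976%) had a lower value. Line 2, the highest control, and line 19-4, the lowest PWS line, contributed most to it. The difference was -0.77 without line 2 and -0.78 without line 19-4. It was -0.95 with the line 19 subclones averaged into 1 sample.

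The spread of Robo2 among clones was far above counting error. Its coefficient of variation was 32.1% among the control lines and 27.2% among the PWS lines. Read counting alone gives 3.23% in a control line and 4.82% in a PWS line of average depth. The values rested on 680, 1341 and 854 reads in the control lines and 460, 475 and 355 reads in the PWS lines. Of these, 99.8% were also counted when reads with several alignments or over several genes were left out.

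Robo1, a second Slit receptor, was the most even of the 7 genes with reads. It had 238, 229 and 245 normalised counts in the control lines and 258, 257 and 238 in the PWS lines. The groups overlapped, with PWS line 19-4 at the level of control line 5-9. Means were 238 ± 8.01 and 251 ± 11.3 (SD, n = 3), and the log2 difference was 0.08 (SE 0.10). The spread within the control group, 3.37%, was under the 6.37% that read counting alone would give. When reads with several alignments or over several genes were left out, 96.1% of the Robo1 reads were still counted, against at least 99.0% for each of the other genes with reads.

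Set against Robo1 in the same library, the balance of the receptors shifted in the PWS lines. The ratio of Robo2 to Robo1 normalised counts was 2.71, 5.36 and 3.57 in control lines 5-9, 2 and 16 and 1.82, 2.21 and 1.35 in PWS lines 3, 19-1 and 19-4. The groups again did not overlap. Because Robo1 was nearly level, this ratio follows Robo2 and is not a separate observation. The ratio of normalised counts holds gene length, so only its change between lines can be read. Robo3, a divergent receptor that binds NELL2 rather than Slit in mammals, had 0 reads in all 6 lines.

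**Figure D1:**
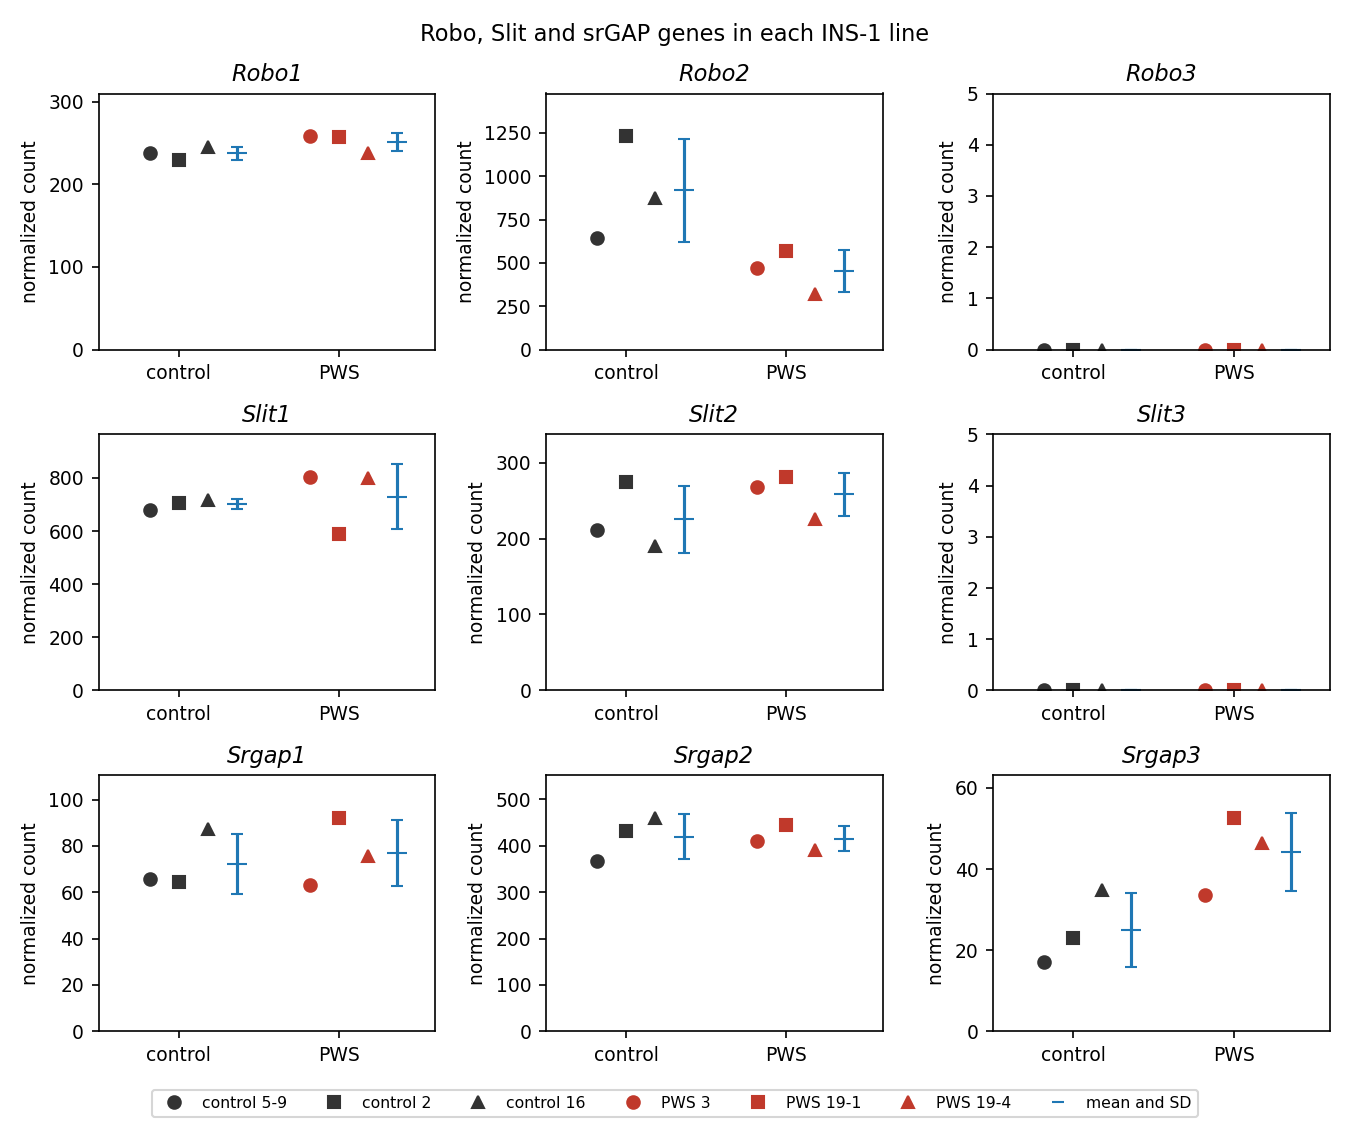
Normalised counts (vertical axes, each starting at 0) of the 9 genes in the control and PWS lines, with 1 point per line, named by its label, and a horizontal bar at each group mean. Robo2 is the gene whose groups do not overlap, 646 to 1231 in control lines against 323 to 568 in PWS lines, and Robo3 and Slit3 sit at 0 in every line.

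Ligand transcripts were present in both groups. Slit1, a ligand best known from the nervous system, had 680, 704 and 718 normalised counts in the control lines and 803, 587 and 798 in the PWS lines. PWS line 19-1 was the lowest of all 6 lines and the other PWS lines were the highest, so the groups overlapped fully. The means were 701 ± 19.3 and 730 ± 123 (SD, n = 3), with a log2 difference of 0.04 (SE 0.13). That difference was 0.19 without line 19-1 and -0.03 without line 3 or line 19-4, so its sign rested on single lines.

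Slit2, the ligand for Robo1 and Robo2 in many tissues, had 212, 274 and 190.0 normalised counts in the control lines and 267, 281 and 226 in the PWS lines. The groups overlapped, as control line 2 lay above PWS lines 3 and 19-4. The means were 225 ± 43.9 and 258 ± 28.4 (SD, n = 3), and the log2 difference of 0.21 (SE 0.16) was little more than its standard error. It was 0.09 without line 16 and 0.36 without line 2. Slit3, the third ligand, had 0 reads in all 6 lines.

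Among the effectors, Srgap3 was the one with a difference of more than its standard error. Srgap3, which acts mainly on Rac1, had 17.1, 22.9 and 34.9 normalised counts in the control lines and 33.7, 52.6 and 46.4 in the PWS lines. The groups overlapped in 1 place, where control line 16 was just above PWS line 3. The means were 25.0 ± 9.09 and 44.2 ± 9.64 (SD, n = 3), a ratio of 1.77 and a log2 difference of 0.83 (SE 0.31). The gene was shallow, with 18 to 34 reads in a control line and 33 to 51 in a PWS line, and read counting alone gives a coefficient of variation of 19.7% at the control depth. The difference was 0.60 without line 5-9, 1.10 without line 16 and 0.63 with the RSEM counts.

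Srgap1, which acts mainly on Cdc42, had 65.5, 64.3 and 87.3 normalised counts in the control lines and 63.3, 92.1 and 75.5 in the PWS lines. The lowest and the highest value were both in PWS lines. Srgap2, which shapes membrane protrusions and spines in neurons, had 366, 432 and 460 in the control lines and 410, 445 and 391 in the PWS lines. Here every PWS line lay inside the control range. The log2 differences were 0.09 (SE 0.21) for Srgap1 and -0.01 (SE 0.11) for Srgap2, both smaller than their standard errors. Single lines set their signs, with -0.05 for Srgap1 without line 19-1, and -0.10 without line 5-9 against 0.06 without line 16 for Srgap2.

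Across the 9 genes, 7 passed the filter of a mean of at least 5 normalised counts over the 6 lines, and Robo3 and Slit3 did not. Of the 7, 5 had a log2 difference above 0 and 2 below, with a median of 0.08, beside -0.0028 over all genes tested. The groups did not overlap for 1 of the 7 genes (14.3%), against 17.4% of all genes tested. With limma, a linear model across all genes, 0 of the 7 passed an adjusted p of 0.05, a mark that 0.257% of all genes passed, and 2 of the 7, Robo2 and Srgap3, were under an unadjusted p of 0.05, against 11.3% of all genes. The edgeR quasi-likelihood test on the recovered reads called 0 of the 7 (0.205% of all genes), and DESeq2 called 1 of the 7, Robo2 (1.46% of all genes). These counts come from the contrast with which the genes were chosen, and nothing is read from them.

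**Figure D2:**
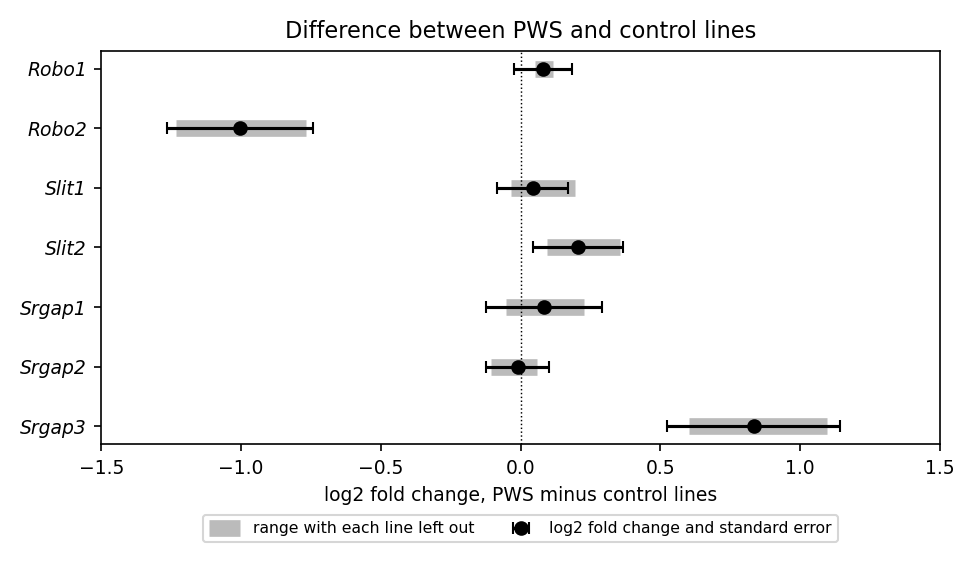
Difference between PWS and control lines (horizontal axis, log2 fold change, PWS minus control) for the 7 genes with reads. Points and whiskers are the value and its standard error from the fit across all genes, and grey bars span the values with each line left out in turn: Robo2 stays between -1.23 and -0.77, Srgap3 between 0.60 and 1.10, and the bars of Slit1, Srgap1 and Srgap2 cross 0.

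Because the other lines descend from line 5-9, each was also set against it. Control lines 2 and 16 had 1.91 and 1.36 times the Robo2 level of line 5-9, while PWS lines 3, 19-1 and 19-4 had 0.727, 0.880 and 0.4999 times. The clones without a paternal deletion were therefore above their parent and those with it were below. For Srgap3 all the derived lines were above line 5-9, at 1.34 and 2.04 times in control lines 2 and 16 and 1.97, 3.08 and 2.71 times in the PWS lines. The remaining genes stayed within 0.864 to 1.41 times. Since line 5-9 has 1 library, its own error enters every one of these ratios.

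**Figure D3:**
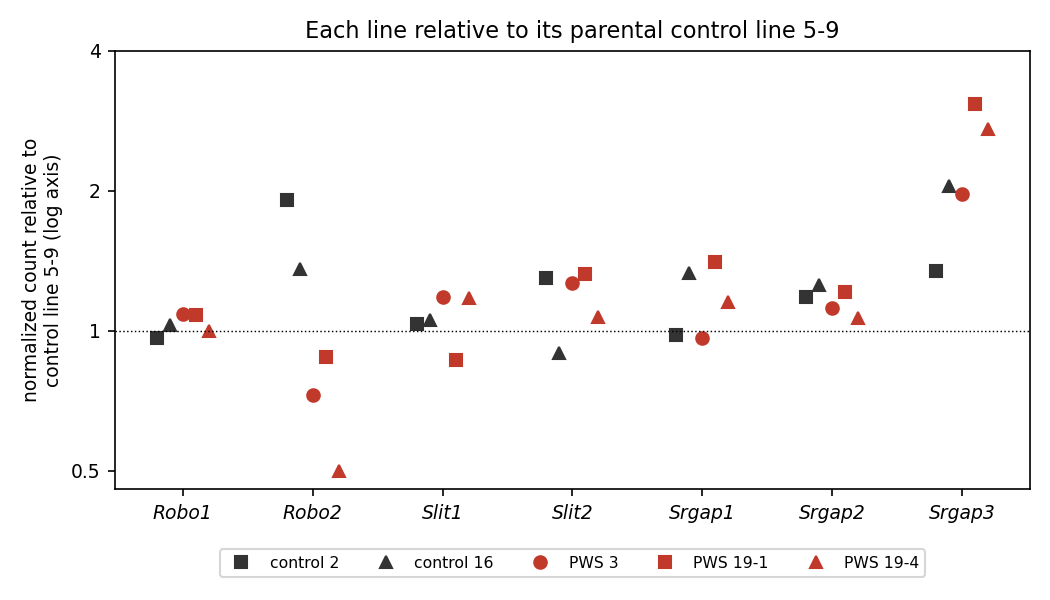
Normalised count of each gene in the 5 derived lines divided by that in control line 5-9 (vertical axis, log scale), with 1 symbol per line and a dotted line at 1. Robo2 is the gene with both derived control lines above 1 (1.91 and 1.36) and all PWS lines below 1 (0.4999 to 0.880), and Srgap3 lies above 1 in every derived line.

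The genes whose profile over the 6 lines was most like that of Robo2 were Spata20, Hecw2, Psmb9, Sh3rf3 and Klf2. Likeness was the root mean square difference of log2 values after subtracting each gene's mean, over 12437 genes with a symbol outside the deleted domain, and a smaller value is a closer match. It was 0.122 for Spata20, 0.144 for Hecw2, which encodes a HECT-type ubiquitin ligase, and 0.144 for Psmb9, which encodes an immunoproteasome subunit. For Sh3rf3, a RING-type ubiquitin ligase gene, it was 0.170, and for Klf2, a Krüppel-like transcription factor gene, 0.184. Psmb9 had 81.7, 179 and 118 normalised counts in the control lines and 71.5, 87.3 and 55.5 in the PWS lines, with line 2 highest and line 19-4 lowest as for Robo2. Unlike Robo2, its groups overlapped, by PWS line 19-1 over control line 5-9. The likeness is a description over 6 lines that share their groups and descent.

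**Figure D4:**
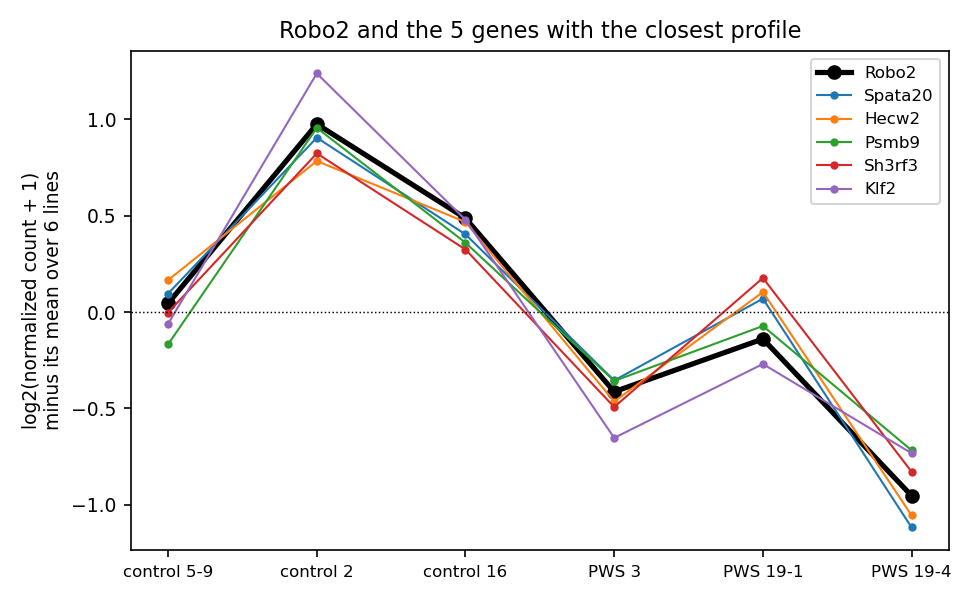
Profile over the 6 lines (horizontal axis) of Robo2 and the 5 genes closest to it, as log2(normalised count + 1) minus the gene's mean over the lines (vertical axis). All 6 profiles are highest in control line 2 and lowest in PWS line 19-4, and the segments join lines for the eye only, since the lines have no order.

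The wider guidance machinery was described with 5 lists holding 121 genes, of which 119 were in the table, 116 had a read and 104 were tested. With limma, edgeR or DESeq2, 0 of the 104 passed an adjusted p of 0.05, and the smallest adjusted p was 0.277 in limma and 0.0604 in DESeq2. Under an unadjusted p of 0.05 there were 17 genes (16.3%, against 11.3% of all genes tested), and the groups did not overlap for 22 (21.2%, against 17.4%). There were 49 genes with a difference above 0 and 55 below, with a median of -0.01. Over all genes the directions depended on the tool. The limma fit called 40 genes, 39 lower and 1 higher in the PWS lines, and DESeq2 called 228, with 122 lower and 106 higher. Genes of the deleted domain were among the genes tested and were not set apart in these counts.

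The cytoplasmic partners of Robo were the list closest to the receptor, with adaptors, kinases, GTPases and regulators such as Nck1, Abl1, Rac1 and Usp33, together with the NELL ligands and Robo4. Of 28 genes, 25 were tested, with 18 above 0 and 7 below and a median of 0.09. The lowest was Cap1, an actin-binding cyclase-associated protein, at -0.19 (SE 0.08, limma adjusted p = 0.449) and -0.10 without line 2. The highest was Pak3, a kinase activated by Cdc42 and Rac1, at 0.82 (SE 0.40, limma adjusted p = 0.491). Pak3 had 1193, 380.0 and 1169 normalised counts in the control lines and 1494, 1177 and 1650 in the PWS lines, so control line 2 alone stood low and the groups overlapped. Without line 2 the difference was 0.27. Nell2, the ligand of the undetected Robo3, was well covered, with 2328, 2174 and 2412 in the control lines and 2380, 2518 and 3014 in the PWS lines. The groups overlapped and the log2 difference was 0.19 (SE 0.10, limma adjusted p = 0.509), or 0.09 without line 19-4. Robo4, the endothelial Robo receptor, had 0 reads in all 6 lines.

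A list of co-receptors and heparan sulphate enzymes, which help Slit bind Robo, also held the Flrt genes, Cxcl12 and Cxcr4. Of its 23 genes, 20 were tested, with 6 above 0 and 14 below and a median of -0.10. Flrt2, a membrane protein of a family that associates with Robo, was lowest at -0.78 (SE 0.30, limma adjusted p = 0.406). It had 131, 239 and 124 normalised counts in the control lines and 113, 105 and 63.6 in the PWS lines, without overlap, and the difference was -0.48 without line 2. The chemokine Cxcl12 was highest at 0.77 (SE 0.36, limma adjusted p = 0.463), while its receptor Cxcr4, whose signalling Slit can dampen, was at -0.54 (SE 0.21, limma adjusted p = 0.407). Cxcl12 had 22.8, 30.3 and 19.5 in the control lines and 26.5, 68.2 and 39.1 in the PWS lines, so the groups overlapped through PWS line 3, and its difference was 0.42 without line 19-1. Cxcr4 had 136, 196 and 238 in the control lines and 137, 134 and 112 in the PWS lines, overlapping only where PWS line 3 reached control line 5-9, and its difference was -0.36 without line 16.

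In the netrin list 13 of 17 genes were tested, 5 above 0 and 8 below, with a median of -0.03. Ntn4, a secreted netrin, was lowest at -0.79 (SE 0.43, limma adjusted p = 0.534). It had 40.8, 124 and 59.6 normalised counts in the control lines and 31.6, 61.0 and 29.1 in the PWS lines. The groups overlapped, control line 2 stood high, and the difference was -0.36 without it. Dcc, the netrin receptor to which Robo binds in growing axons, was highest at 0.86 (SE 0.34, limma adjusted p = 0.418), with 16.1, 33.0 and 13.4 normalised counts in the control lines and 32.7, 40.7 and 34.5 in the PWS lines. Control line 2 lay among the PWS lines, and the values are low.

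The semaphorins and plexins were split evenly, with 28 of 31 genes tested, 14 above 0 and 14 below, and a median of 0.01. Sema7a, a membrane-anchored semaphorin, had the lowest log2 difference of the 5 lists, -1.45 (SE 0.40, limma adjusted p = 0.285), at 11.4, 24.8 and 14.4 normalised counts in the control lines and 7.15, 3.59 and 5.46 in the PWS lines. Its groups did not overlap, and with 3 reads in PWS line 19-1 it was at the edge of detection. Sema5a was highest at 0.64 (SE 0.45, limma adjusted p = 0.635), with 12.3, 12.9 and 41.1 in the control lines and 34.7, 32.3 and 23.6 in the PWS lines. The groups overlapped because control line 16 was the highest of all lines, and the difference was 1.18 without line 16, 0.35 without line 5-9 and 0.38 without line 2. Among ephrins and Eph receptors 18 of 22 were tested, 6 above 0 and 12 below, with a median of -0.13. Efna1, a membrane-anchored ephrin ligand, was highest at 1.12 (SE 0.40, limma adjusted p = 0.369), and its receptor Epha2 was lowest at -0.62 (SE 0.22, limma adjusted p = 0.364). Epha2 had 61.7, 60.6 and 57.5 normalised counts in the control lines and 33.7, 33.5 and 50.9 in the PWS lines, without overlap, and Efna1 had 6.65, 19.3 and 10.3 against 18.4, 29.9 and 29.1, with overlap.

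**Figure D5:**
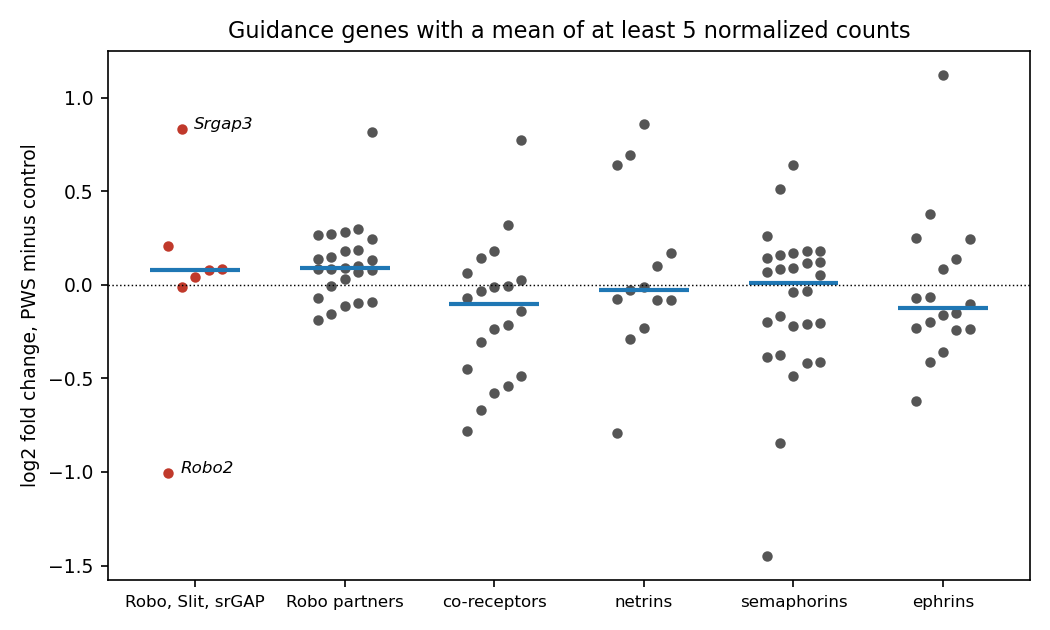
Log2 fold change, PWS minus control (vertical axis), of every tested gene in the Robo, Slit and srGAP set and in the 5 further guidance lists, with 1 point per gene and a bar at each list's median. Robo2 at -1.004 is the lowest of its set, list medians run from -0.13 to 0.09, and Sema7a at -1.45 and Efna1 at 1.12 are the extremes of the further lists.

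Summed levels of cell type markers differed between the lines. Of 13 fibroblast, endothelial and leukocyte markers in the table, 7 had a read, and their summed level was 182 to 211 normalised counts in the control lines and 103 to 176 in the PWS lines. Dcn, Lum, Pdgfrb, Cdh5, Ptprc and Cd14 were at 0 in every line. Pdgfra was at 137, 145 and 165 in the control lines and 129.7, 117 and 46.4 in the PWS lines. It made up most of the sum in every line but 19-4, where the sum was 103. Of 4 markers of other islet cells, 3 had a read, with Sst at 0 in every line. The sum was 2.75 to 19.9 in the control lines and 13.2 to 100.01 in the PWS lines, highest in line 19-4. Only Gcg passed the filter, with a log2 difference of 2.12, or 0.75 without line 2. Ppy and Ghrl, below the filter, went the other way, at -0.96 and -0.34. The 17 beta cell markers summed to 565699 to 654477 in the control lines and 322976 to 544698 in the PWS lines. Most of that sum was the hormone genes Ins1, Ins2 and Iapp, singled out after their values were seen, at 459110 to 537064 in the control lines and 232755 to 430993 in the PWS lines. The other 14 markers summed to 106590 to 117414 and 90221 to 114398, and the median log2 difference of all 17 was -0.10, with 5 above 0 and 12 below. Line 19-4 had the lowest value of all 6 lines for Robo2 and for the beta cell and fibroblast, endothelial and leukocyte sums, and the Robo2 difference was -0.78 without it. The part of these markers in the Robo2 difference was not tested. In bulk RNA, fewer cells expressing a gene and less RNA per cell cannot be told apart.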

How the data were processed

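Total RNA of 3 control and 3 PWS INS-1 lines was sequenced, with 1 library per line. The authors trimmed reads with cutadapt, aligned them with STAR 2.7.0e to the Ensembl rat genome with added features, counted them with HTSeq 0.11.2 or RSEM 1.3.1 and compared groups with DESeq2. What they deposited for each line is a signal: the count of a gene over the DESeq2 size factor of the library. Columns with the authors' own fold changes and p-values were not used. Values come from the HTSeq table in which a read with several alignments, or over several genes, counts for each of them. Dividing each column by its lowest value above 0 gave whole numbers for 100% of values (tolerance 0.001 reads), taken as the reads.

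Groups were compared with limma 3.58.1 in R 4.3.3 on log2(normalised count + 1), which understates changes of low genes, for the 15579 genes whose mean over all lines reached 5, with Benjamini-Hochberg adjustment over all of them and a threshold of 0.05. Alternatives included edgeR 4.0.16 and DESeq2 1.42.0 on recovered reads. Each test was checked on simulated counts drawn with gene variances that edgeR had estimated, 1 set with 200 genes changed and 1 with none. With 200 genes changed, limma, edgeR and DESeq2 recovered 163, 164 and 168 and made 14, 17 and 45 false calls. With none changed they made 0, 0 and 14 false calls. For a single value, an exact permutation test of 3 against 3 lines cannot go below a two-sided p of 0.1. The genes, lists and naming rule were chosen with earlier results of these data known. The rule names all 9 genes, the highest and lowest tested gene of each list where none passed, Robo4, Nell2, Dcc, Cxcr4 and Cxcl12, and the 5 profiles closest to Robo2. Of the lists, Hspg2, Epha6, Col1a2 and Pecam1 were not analysed here. Promoters came from RefSeq (GRCr8), matched by symbol.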

Additional observations from a re-analysis of the deposited data

How the results depend on the processing

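The log2 differences of Robo1, Robo2, Slit1, Slit2, Srgap1, Srgap2 and Srgap3 were computed under 18 alternatives, 6 of them leaving out 1 line each. All 125 values stayed within 1 within-group SD of the value given. With 3 lines per group, leaving out 1 line cannot move a difference by that SD. Another minimum mean, or a block for replicate number, returns the same difference by construction. Nothing is therefore read from the count of 125. Srgap3 could not be fitted with a minimum mean of 50 normalised counts. The Robo2 difference ran from -1.23 to -0.77 with each line left out, and no single line moved it by over 1.5 times. The sign of the small Slit1, Srgap1 and Srgap2 differences turned without single lines. Each of the 5 guidance lists had 0 genes passing under every alternative. Over all genes, 40 passed, against 9 with a minimum mean of 50, 228 with DESeq2 and 12 with RSEM counts. There were 16 without reads that have several alignments or lie over several genes, and 33 to 55 with each line left out. The paper states that leaving such reads out drops Snord116 and Snurf-Snrpn of the deleted domain, and that RSEM gave them lower counts. The part of these genes in the counts was not tested, and a higher minimum leaves fewer genes. The replicate numbers name clones. The deviations of same-numbered lines from their group means correlated at 0.00345, 0.0467 and 0.00513, so the numbers were not taken as pairs, and not every line correlated best with its own number. With the replicate block 36 genes passed and the Robo2 difference was -1.004 (SE 0.18). Low depth limits Srgap3 most.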
